A study of Mus musculus with 4 samples.

Results

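The potassium, calcium and TRP channel genes are the rows whose symbols begin with Kcn or Cacn, the single-digit members of the Trpc, Trpm and Trpv families, Piezo1, Piezo2, Abcc8 and Abcc9. Of the 32287 features of the count tables, 149 met that rule: 99 named Kcn, 26 named Cacn, 20 named Trp, 2 Piezo genes and 2 Abcc genes. A level of at least 5 CPM (counts per 1000000 counts of a library) was reached by 31 of them, namely 16 Kcn, 8 Cacn, 4 Trp, both Piezo genes and Abcc9. Another 89 had counts below that level in all 4 libraries, and 29 had none. The lowest maxima above the threshold were those of Kcna2 (5.34 CPM) and Cacnb1 (5.51 CPM), and the highest below it were those of Kcnq5 (4.63 CPM), Kcnq3 (4.58 CPM) and Kcnk1 (4.41 CPM).

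The cells were aortic smooth muscle cells (SMCs) of mice 12 weeks old that carried Wnt1-Cre2 and the mT/mG reporter, sorted for the integrin subunit ITGA8 and counted as single cells by the 3′ ends of their transcripts. Wnt1-Cre2 drives the recombinase in the embryonic neural crest. A cell in which it has acted, and all its descendants of any type, make membrane eGFP, and other cells make membrane tdTomato. The 4 libraries were the aortic root with both colours (Root), tdTomato cells (Asc-RFP) and eGFP cells (Asc-GFP) from the ascending segment, and eGFP cells from the arch (Arch-GFP). All of them share the driver, the reporter, the age and the sort, and none is without Cre. The number of animals behind each library is unknown here.

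Smooth muscle tone follows the membrane potential. Open potassium channels hyperpolarise the cell and close voltage-gated calcium channels, whose current feeds contraction, while several TRP and Piezo channels pass cations into the cell on stretch or receptor activation. ATP-sensitive potassium channels of vascular muscle are built from the pore Kir6.1 (Kcnj8) and the sulfonylurea receptor SUR2 (Abcc9), and they are the target of vasodilating channel openers.

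Kept cells numbered 2960 in Root, 4030 in Asc-RFP, 6408 in Asc-GFP and 8031 in Arch-GFP, with 39691658, 53961182, 84107726 and 100987052 UMIs (unique molecular identifiers, the count of distinct RNA molecules). A kept cell had 1000 or more genes detected and no more than 10% of its UMIs from mitochondrial genes. By reporter UMIs, 576 Root cells were eGFP cells, 1822 were tdTomato cells and 562 were neither. All 12 smooth muscle markers were above 5 CPM in each library, with a summed level of 52743 to 60824 CPM. Not every marker followed that sum. Des was at 230 CPM in Root, 332 in Asc-RFP, 44.9 in Asc-GFP and 27.0 in Arch-GFP. Actg2 was at 197, 338, 260 and 433 CPM in the same order. Between 4 and 18 barcodes were shared by any pair of libraries. Other cell types were unevenly present: 8 macrophage markers summed to 738 CPM in Root, 179 in Asc-RFP, 5.47 in Asc-GFP and 0.762 in Arch-GFP, and 8 endothelial markers to 60.6, 40.3, 27.1 and 28.6 CPM. The endothelial list did not move as one. Erg was lowest in Root, at 15.2 CPM against 27.3 in Asc-RFP, 25.3 in Asc-GFP and 27.8 in Arch-GFP. Each other endothelial marker was highest in Root. Of the cells that could be sexed, 87.8% were female in Root, 54.4% in Asc-RFP, 70.1% in Asc-GFP and 29.1% in Arch-GFP. Each group was 1 library, so no difference has a replicate check and no test between groups was possible. Intervals in parentheses are 95% intervals for counting error only.

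Kcnj8 and Abcc9 are neighbours in the mouse genome, which the rule did not use. In mm10 coordinates (GENCODE M21) Kcnj8 (ENSMUSG00000030247) lies at chr6:142564837-142571614 and Abcc9 (ENSMUSG00000030249) at chr6:142587862-142702315, both protein-coding on the minus strand, with 16247 bases between them. Their promoters are shown because the levels of both genes differed between libraries. Each window runs 5′ to 3′ on the minus strand from 250 bases before the RefSeq start to 30 after it (GRCm38.p6), at chr6:142571585-142571864 for Kcnj8 and chr6:142702245-142702524 for Abcc9. Capitals mark matches, on either strand, to TGGGAA, the core bound by RBPJ of the Notch pathway, and to CATTCC, the core bound by TEAD factors.

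Kcnj8: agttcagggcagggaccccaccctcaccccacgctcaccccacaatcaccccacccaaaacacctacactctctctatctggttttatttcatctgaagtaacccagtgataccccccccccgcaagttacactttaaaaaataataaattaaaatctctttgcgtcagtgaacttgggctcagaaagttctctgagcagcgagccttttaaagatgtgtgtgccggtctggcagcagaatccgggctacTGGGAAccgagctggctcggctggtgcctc

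Abcc9: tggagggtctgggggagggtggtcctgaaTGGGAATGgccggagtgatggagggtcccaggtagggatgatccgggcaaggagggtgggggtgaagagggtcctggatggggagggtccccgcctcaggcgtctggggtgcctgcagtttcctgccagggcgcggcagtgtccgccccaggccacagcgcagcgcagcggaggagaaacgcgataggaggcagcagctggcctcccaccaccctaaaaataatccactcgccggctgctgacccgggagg

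In Kcnj8 the match to TGGGAA begins at the first transcribed base. In Abcc9 it begins 221 bases before the start and overlaps a match to CATTCC, read as GGAATG on this strand, that begins 219 bases before the start. Over the full windows of the promoter table, which end 50 bases after the start, TGGGAA occurred in 11 of the 26 channel genes with an entry (42.3%) and in 28.3% of all 27025 genes. CATTCC occurred in 3 of 26 (11.5%) against 16.6%, and TATAAA in 5 of 26 (19.2%) against 15.7%. The CArG box, bound by serum response factor at many smooth muscle genes, was in 0 of 26 windows against 1.81% of all genes. These are matches of letters in short windows and say nothing of binding.

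The 31 genes made up 1143 CPM in Root, 1289 in Asc-RFP, 1398 in Asc-GFP and 1408 in Arch-GFP. Between the highest and the lowest library, 15 of them differed by less than 1.5-fold, 9 by 1.5-fold to 2-fold and 7 by 2-fold or more. A difference of 1.5-fold or more was thus found in 51.6% of the channel genes and in 12.7% of all 10052 features at 5 CPM, and one of 2-fold or more in 22.6% against 6.25%. Of the 16 at 1.5-fold or more, 11 were lowest in Root (68.8%, against 36.7% of all features that differed as much), 4 were highest there (25%, against 47.3%) and 10 were highest in Arch-GFP (62.5%, against 36.7%). The levels themselves helped to choose these genes, and no test was made of these shares. Root held cells of both colours and each other library cells of 1 colour, and the part of that mix in these counts was not tested. The genes spread most were Cacna2d3 (10.4-fold), Kcnc4 (4.07-fold), Kcnk3 (3.59-fold), Abcc9 (3.21-fold), Kcnj8 (2.47-fold), Piezo1 (2.46-fold) and Kcnj15 (2.16-fold).

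**Figure D1:**
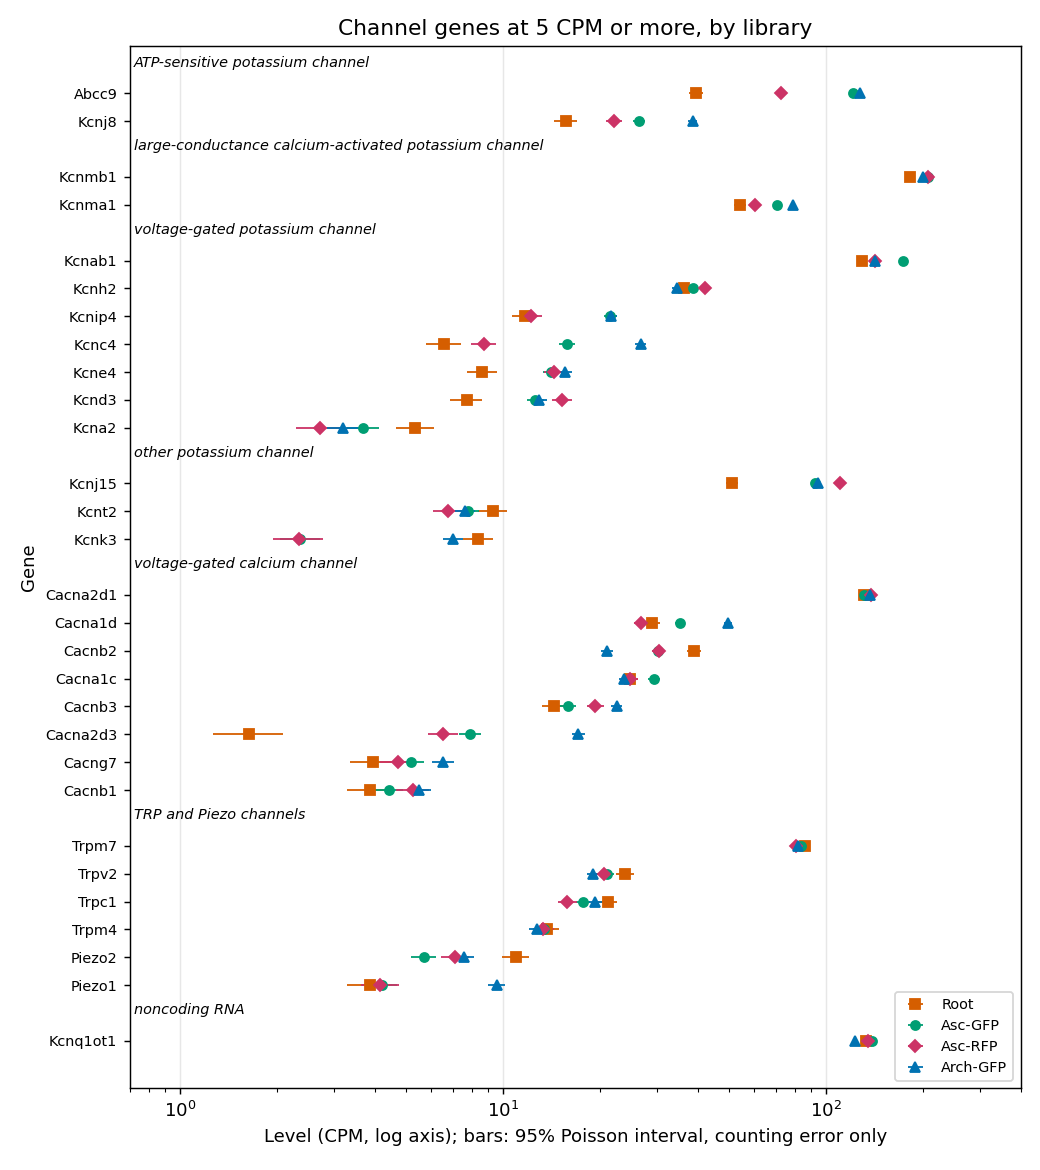
Levels of 29 of the 31 channel genes by library, on a log axis in CPM, grouped by channel family, with 95% Poisson intervals as bars. Cacna2d3 runs from 1.64 CPM in Root to 17.1 CPM in Arch-GFP, whereas the points of Kcnmb1, Cacna2d1, Kcnq1ot1, Trpm7 and Trpm4 lie close together.

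Among the ATP-sensitive channel genes, Abcc9 was at 39.7 CPM (37.7 to 41.7) in Root, 72.8 (70.5 to 75.1) in Asc-RFP, 121 (119 to 123) in Asc-GFP and 127 (125 to 130) in Arch-GFP. Root was lowest, both libraries of eGFP cells were highest, and no intervals overlapped. Kcnj8 was at 15.6 CPM (14.4 to 16.9) in Root, 22.1 (20.9 to 23.4) in Asc-RFP, 26.3 (25.2 to 27.5) in Asc-GFP and 38.7 (37.5 to 39.9) in Arch-GFP. It had the same lowest library and the same order, with a wider gap between arch and ascending eGFP cells. In female cells alone Kcnj8 was at 30.9 CPM in Arch-GFP and 25.7 in Asc-GFP, and in male cells at 41.4 and 28.0 CPM. Within Root, Abcc9 was at 58.9 CPM in eGFP and 33.8 CPM in tdTomato cells, and Kcnj8 at 21.6 and 13.0 CPM. In both colours Root was therefore below the ascending library of the same colour for both genes.

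Because a UMI of this assay counts the 3′ end of 1 molecule, levels were not scaled by transcript length, and a ratio of UMIs between genes is used only to compare libraries. There were 2.54 Abcc9 UMIs per Kcnj8 UMI in Root (2.31 to 2.79), 3.29 in Asc-RFP (3.08 to 3.51), 4.60 in Asc-GFP (4.39 to 4.81) and 3.30 in Arch-GFP (3.18 to 3.42). The ratio was thus highest in ascending eGFP cells and its intervals overlapped in Asc-RFP and Arch-GFP.

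The share of cells with an Abcc9 UMI, after each cell was thinned to 4000 UMIs, was 13.6% (12.4 to 15.0) in Root, 22.8% (21.5 to 24.2) in Asc-RFP, 35.8% (34.6 to 37.0) in Asc-GFP and 36.7% (35.6 to 37.9) in Arch-GFP. Thinning left out 122, 415, 283 and 787 shallower cells, and the unthinned shares were 31.5%, 50.02%, 67.9% and 67.1%. The order of the thinned shares followed that of the levels, whereas the unthinned shares had Asc-GFP above Arch-GFP. In Root the thinned share was 19.1% (15.9 to 22.6) of eGFP cells and 11.8% (10.3 to 13.4) of tdTomato cells. In the 101 Root cells with macrophage markers the unthinned share was 4.95% (1.63 to 11.2), from 7 Abcc9 UMIs in all, with a median depth of 8440 UMIs against 13226.5 in Root. Thinning left out 28 of them, and 0 of the other 73 held an Abcc9 UMI, with an upper limit of 4.93%.

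Abcc9 and Kcnj8 also mark pericytes, so 8 pericyte markers were read beside them. They summed to 472 CPM in Root, 512 in Asc-RFP, 557 in Asc-GFP and 806 in Arch-GFP, and 5 of the 8 were at 5 CPM or more in each library. The list did not move as one. Rgs5 was at 24.6 CPM in Root, 115 in Asc-RFP, 101 in Asc-GFP and 349 in Arch-GFP, lowest in Root. Notch3 was highest in Root instead, at 45.8 CPM against 14.0 in Asc-RFP, 23.9 in Asc-GFP and 19.0 in Arch-GFP, as was Cox4i2, at 28.5 CPM against 13.2 to 23.1. Ndufa4l2 and Higd1b were at 3.68 and 1.31 CPM in Root and at no more than 0.167 and 0.0741 CPM elsewhere. Pdgfrb ranged from 81.7 to 99.3 CPM and Cspg4 from 279.7 to 319.5 CPM, and Vtn was at 0 in all 4 libraries. The part of pericytes in the levels of Abcc9 and Kcnj8 was not tested.

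The large-conductance calcium-activated (BK) channel is the pore Kcnma1 with the smooth muscle subunit Kcnmb1, which raises its calcium sensitivity. Kcnmb1 had the highest mean level of all 31 genes, at 182 CPM in Root, 207 in Asc-RFP, 207 in Asc-GFP and 199 in Arch-GFP. Its libraries lay within 1.14-fold. Kcnma1 was at 54.1 CPM in Root, 60.4 in Asc-RFP, 70.5 in Asc-GFP and 79.1 in Arch-GFP, a spread of 1.46-fold with Root lowest. The Kcnmb1 UMIs per Kcnma1 UMI were 3.36 in Root (3.20 to 3.53), 3.43 in Asc-RFP (3.30 to 3.56), 2.93 in Asc-GFP (2.85 to 3.02) and 2.52 in Arch-GFP (2.45 to 2.58). The ratio was lowest in the arch, but it did not go with colour in Root, where it was 3.49 (3.14 to 3.89) in eGFP and 3.32 (3.12 to 3.52) in tdTomato cells. Kcnip1 overlaps Kcnmb1 on the opposite strand, and the strand setting of the counting is not known here. Abcc9 (with 5330439B14Rik), Cacna2d3 (Lrtm1), Piezo1 (Ctu2) and Kcnq1ot1 (Kcnq1) likewise overlap a gene on the opposite strand, so their reads may not be told apart. The same limit holds for others of the 31 genes, among them Kcnk3 (Gm9899), Kcnj15 (Gm31641), Kcnip4 (Gm20700) and Kcnd3 (Kcnd3os). Kcnd3 also overlaps Gm43847 on its own strand. Kcnab1, Kcnma1, Cacnb2 and Kcne4 overlap genes on the opposite strand too.

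The voltage-gated potassium channel genes numbered 9 at 5 CPM. The β subunit gene Kcnab1 was at 129.6 CPM in Root, 142 in Asc-RFP, 173 in Asc-GFP and 142 in Arch-GFP, highest in ascending eGFP cells. Kcnh2, the pore known from the cardiac rapid delayed rectifier, was at 36.2 CPM in Root, 42.0 in Asc-RFP, 38.8 in Asc-GFP and 34.4 in Arch-GFP, a spread of 1.22-fold.

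Larger spreads were found among other genes of this family. Kcnc4, the pore Kv3.4, was at 6.55 CPM (5.78 to 7.40) in Root, 8.71 (7.94 to 9.53) in Asc-RFP, 15.8 (14.9 to 16.6) in Asc-GFP and 26.7 (25.7 to 27.7) in Arch-GFP. None of these intervals overlapped, and the eGFP libraries were the higher pair. Kcnip4, a calcium-binding subunit of Kv4 channels, was at 11.7 CPM in Root, 12.2 in Asc-RFP, 21.5 in Asc-GFP and 21.6 in Arch-GFP. The libraries again fell into a higher eGFP pair and a lower pair of Root and Asc-RFP. Root holds both colours, and within it Kcnip4 was at 17.5 CPM in eGFP and 10.7 CPM in tdTomato cells.

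Kcnd3, the Kv4.3 pore, was at 7.71 CPM in Root, 15.2 in Asc-RFP, 12.6 in Asc-GFP and 12.9 in Arch-GFP. It was lowest in Root and highest in the ascending tdTomato cells, not in eGFP cells. Kcne4, a subunit that inhibits several Kv pores, was at 8.62 CPM in Root, 14.4 in Asc-RFP, 14.1 in Asc-GFP and 15.6 in Arch-GFP, with Root apart from the rest. Kcna2, the Kv1.2 pore, was at 5.34 CPM in Root, 2.71 in Asc-RFP, 3.70 in Asc-GFP and 3.19 in Arch-GFP and was the only Kv gene of the 9 highest in Root.

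Of the other potassium channels, Kcnj15, the inward rectifier pore Kir4.2, was at 51.3 CPM (49.1 to 53.6) in Root, 111 (108 to 113) in Asc-RFP, 92.7 (90.7 to 94.8) in Asc-GFP and 94.4 (92.5 to 96.3) in Arch-GFP. Root was lowest and the tdTomato cells of the ascending aorta were highest. The acid-sensitive leak channel TASK-1, Kcnk3, was at 8.39 CPM (7.51 to 9.34) in Root, 2.34 (1.95 to 2.78) in Asc-RFP, 2.35 (2.04 to 2.71) in Asc-GFP and 7.001 (6.49 to 7.54) in Arch-GFP. Both ascending libraries were low, with overlapping intervals, and Root and arch lay above them. The sodium-activated channel gene Kcnt2 ranged from 6.76 to 9.30 CPM.

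**Figure D2:**
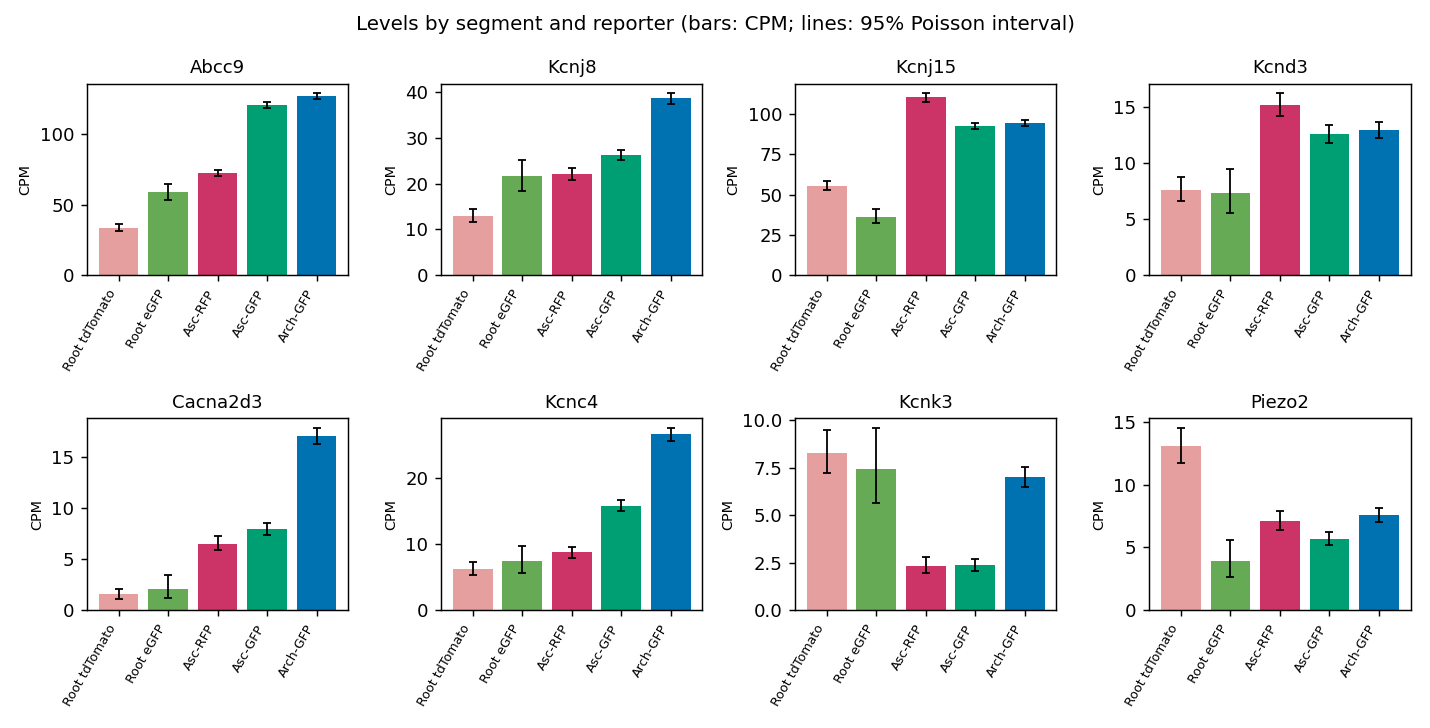
Levels of 8 channel genes in CPM, with Root split into its tdTomato and eGFP cells, beside the ascending and arch libraries; bars are levels and lines 95% Poisson intervals. Abcc9 steps from 33.8 CPM in Root tdTomato cells to 127 CPM in Arch-GFP, while Kcnk3 is near 2.3 CPM in both ascending libraries and above 6 CPM elsewhere.

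The voltage-gated calcium channel genes at 5 CPM were 2 pores and 6 subunits. Cacna2d1, an extracellular subunit that raises the current of the pore, was at 131 CPM in Root, 138 in Asc-RFP, 131 in Asc-GFP and 137 in Arch-GFP, the smallest spread of the 31 genes (1.06-fold). Its relative Cacna2d3 had the largest: 1.64 CPM (1.26 to 2.09) in Root, 6.52 (5.86 to 7.24) in Asc-RFP, 7.91 (7.32 to 8.53) in Asc-GFP and 17.1 (16.3 to 17.9) in Arch-GFP. Cacna2d3 was thus lowest in the root, intermediate in both colours of the ascending aorta and highest in the arch.

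The L-type pores differed from each other. Cacna1d (CaV1.3) was at 28.9 CPM in Root, 26.8 in Asc-RFP, 35.3 in Asc-GFP and 49.8 in Arch-GFP, while Cacna1c (CaV1.2), the main L-type pore of arterial muscle, stayed between 23.7 and 29.3 CPM. There were 1.17 Cacna1d UMIs per Cacna1c UMI in Root (1.08 to 1.28), 1.08 in Asc-RFP (1.01 to 1.17), 1.20 in Asc-GFP (1.14 to 1.27) and 2.10 in Arch-GFP (1.999 to 2.20). Arch-GFP was set apart from the other libraries, whose intervals overlapped. In female cells alone Cacna1d was at 42.9 CPM in Arch-GFP and 32.0 in Asc-GFP, and in male cells at 52.8 and 43.1 CPM. Genes on the opposite strand overlap both, Chdh and Dcp1a at Cacna1d and Dcp1b at Cacna1c.

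Among the β subunit genes, which carry the pore to the membrane, Cacnb2 was at 38.9 CPM in Root, 30.3 in Asc-RFP, 30.1 in Asc-GFP and 20.9 in Arch-GFP. Cacnb3 ran the other way, from 14.3 CPM in Root to 22.5 CPM in Arch-GFP. The Cacnb2 UMIs per Cacnb3 UMI were 2.72 in Root (2.46 to 2.99), 1.57 in Asc-RFP (1.45 to 1.70), 1.90 in Asc-GFP (1.77 to 2.03) and 0.933 in Arch-GFP (0.878 to 0.990), so that Cacnb3 had more UMIs than Cacnb2 only in the arch library. Cacnb1 ranged from 3.88 to 5.51 CPM. The γ subunit gene Cacng7 was at 3.96 CPM in Root, 4.73 in Asc-RFP, 5.20 in Asc-GFP and 6.54 in Arch-GFP.

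The 4 TRP genes differed by 1.07-fold to 1.34-fold between libraries. Trpm7, a channel fused to a kinase that passes magnesium and calcium, was at 86.3 CPM in Root, 80.6 in Asc-RFP, 83.8 in Asc-GFP and 81.8 in Arch-GFP. Trpv2, Trpc1 and Trpm4 ranged from 19.1 to 23.9 CPM, from 15.8 to 21.1 CPM and from 12.7 to 13.7 CPM, each highest in Root. The stretch-gated Piezo channels spread more. Piezo1 was at 3.88 CPM (3.29 to 4.54) in Root, 4.17 (3.64 to 4.75) in Asc-RFP, 4.22 (3.79 to 4.68) in Asc-GFP and 9.55 (8.95 to 10.2) in Arch-GFP, where it stood above the rest. Piezo2 was at 10.9 CPM (9.93 to 12.0) in Root, 7.12 (6.42 to 7.87) in Asc-RFP, 5.68 (5.18 to 6.22) in Asc-GFP and 7.59 (7.06 to 8.14) in Arch-GFP. The noncoding RNA Kcnq1ot1, antisense to Kcnq1 and no channel itself, was at 133 CPM in Root, 135 in Asc-RFP, 139 in Asc-GFP and 123 in Arch-GFP.

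The root was compared with the ascending aorta within each reporter colour. A gene was counted as higher or lower when it had at least 5 CPM in either group and differed by at least 1.5-fold, a log2 ratio of 0.58. The background was counted by the same limits. A gene below 5 CPM in 1 group is counted only through the group where it is higher. That was so for Kcnk3, Kcna2, Cacna2d3, Cacng7, Piezo1 and Piezo2, each in at least 1 comparison. Root tdTomato cells against Asc-RFP had 3 of 29 channel genes higher (10.3%, background over all genes 4.36%) and 6 lower (20.7%, background 2.28%). Higher were Kcnk3 at 8.29 against 2.34 CPM, a log2 ratio of 1.83 (1.503 to 2.16), Kcna2 (1.03) and Piezo2 (0.88). Lower were Cacna2d3 at 1.52 against 6.52 CPM, a log2 ratio of -2.10 (-2.61 to -1.62), Abcc9 at -1.11 (-1.21 to -0.999), Kcnd3 (-0.997), Kcnj15 (-0.99), Kcnj8 (-0.76) and Kcne4 (-0.73). The median of the channel genes was -0.16 and that of all genes 0.01. With a minimum of 20 CPM, 0 of 16 channel genes were higher and 3 lower (18.8% in either direction, background 4.51%).

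Root eGFP cells against Asc-GFP had 1 of 28 channel genes higher (3.57%, background 2.8%), which was near the background, and 6 lower (21.4%, background 2.97%). The higher gene was again Kcnk3, at 7.43 against 2.35 CPM and a log2 ratio of 1.66 (1.21 to 2.09). The lower genes were Cacna2d3 (-1.92), Kcnj15 at 36.4 against 92.7 CPM with -1.35 (-1.53 to -1.18), Kcnc4 (-1.09), Abcc9 at 58.9 against 121 CPM with -1.04 (-1.18 to -0.90), Cacng7 (-0.99) and Kcnd3 (-0.79). The medians were -0.07 for the channel genes and -0.01 for all genes. Both colours thus had Kcnk3 higher and Abcc9, Kcnj15, Kcnd3 and Cacna2d3 lower in the root, among 27 genes counted in both. That is 3.7% higher in both colours, against 1.55% of all features counted in both, and 14.8% lower in both, against 1.42%. The 3.7% is 1 gene, too few to read against its background. The root cells of both colours came from 1 library, so these are not separate observations of the root.

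**Figure D3:**
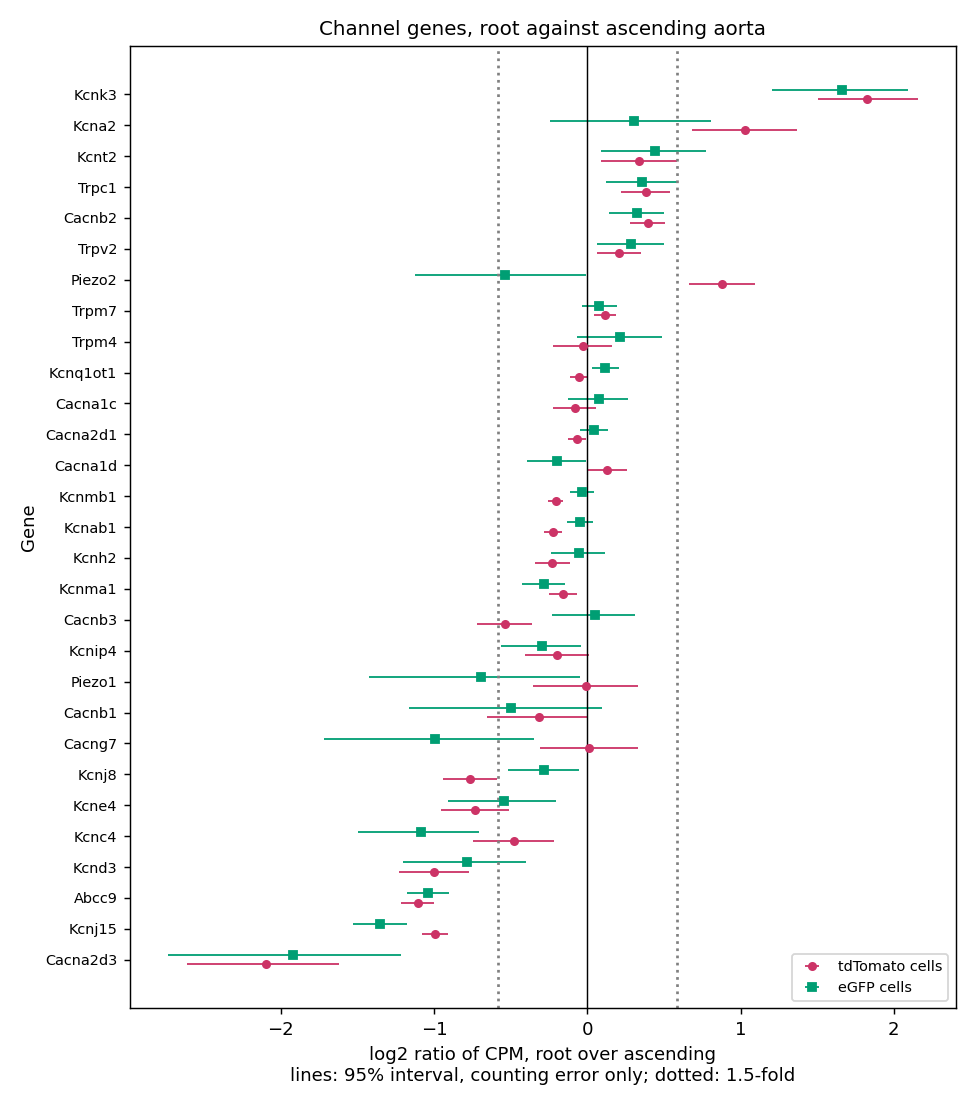
Log2 ratios of CPM, root over ascending aorta, for 29 of the 31 channel genes in tdTomato cells (circles) and eGFP cells (squares), with 95% intervals as lines and 1.5-fold as dotted lines. Kcnk3 lies at 1.83 and 1.66, Cacna2d3 at -2.10 and -1.92, and Piezo2 lies on opposite sides of 0.

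Macrophage markers summed to 643 CPM in Root tdTomato cells and 179 CPM in Asc-RFP, and to 22.2 CPM in Root eGFP cells and 5.47 CPM in Asc-GFP. Endothelial markers summed to 70.7 and 40.3 CPM in the tdTomato pair and to 16.3 and 27.1 CPM in the eGFP pair. Of these sums Erg was 15.2 and 27.3 CPM in the tdTomato pair and 14.1 and 25.3 CPM in the eGFP pair. Each other endothelial marker was higher in Root tdTomato cells than in Asc-RFP, and none exceeded 1.04 CPM in the eGFP pair. The 8 fibroblast markers summed to 721 and 963 CPM and to 560 and 1091 CPM, lower in the root in both colours. Within that list Dcn was at 139 CPM in Root tdTomato cells and 59.0 CPM in Asc-RFP, and Lum at 31.9 and 6.58 CPM, both higher in the root. In eGFP cells Dcn was at 28.4 and 16.1 CPM and Lum at 7.56 and 1.64 CPM. The part of the fibroblast markers in the differences was not tested. All 28 differences counted over the 5 comparisons were kept when cells with at least 5 UMIs of macrophage or of endothelial markers were left out. Without those cells Kcnk3 was at 8.64 CPM and Abcc9 at 40.9 CPM in Root.

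Some of these values differed between the sexes. In Root, Kcnk3 was at 6.24 CPM in female cells and 21.9 CPM in male cells, Abcc9 at 44.5 and 15.6 CPM and Kcnj15 at 56.6 and 16.7 CPM, with 2409 female and 335 male cells. In female cells alone, Kcnk3 in Root eGFP cells against Asc-GFP had a log2 ratio of 0.35, below the 1.5-fold limit, and in Root tdTomato cells against Asc-RFP of 1.59. Kcne4 and Piezo2 in tdTomato cells were at -0.48 and 0.58 in female cells, also below it. The log2 ratios of Abcc9 in female cells were -1.23 in tdTomato and -0.99 in eGFP cells, and those of Cacna2d3 were -2.25 and -1.75. Under a stricter filter on cells, Kcnd3 in eGFP cells was at -0.48.

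**Figure D4:**
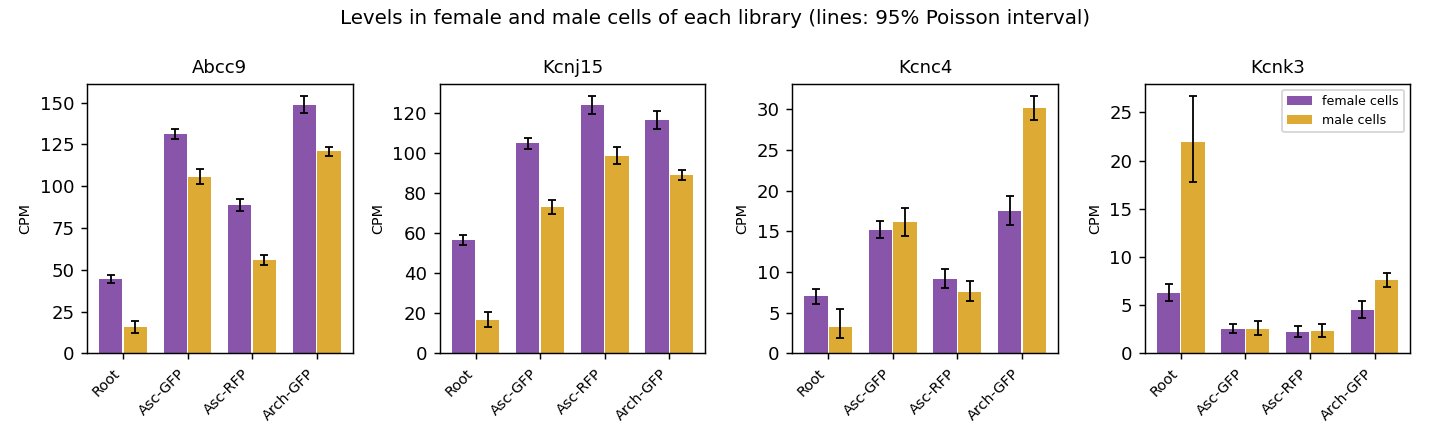
Levels of 4 channel genes in CPM in female and male cells of each library, with 95% Poisson intervals as lines. Abcc9 and Kcnj15 are lower in male cells in all 4 libraries, and Kcnk3 reaches 21.9 CPM in the 335 male Root cells.

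In the other libraries Abcc9 was at 88.8 CPM in female and 55.8 CPM in male cells of Asc-RFP, 131 and 105 CPM of Asc-GFP, and 149 and 121 CPM of Arch-GFP. It was thus lower in male cells in each library, as was Kcnj15, at 124 and 98.8 CPM in female and male cells of Asc-RFP, 105 and 73.1 CPM of Asc-GFP, and 116 and 88.9 CPM of Arch-GFP. Cells of 1 sex come from other animals than those of the other sex, so sex and animal cannot be told apart.

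The comparison by colour asked how cells that descend from Wnt1-Cre2 cells differ from their neighbours in the same segment. In the ascending aorta, Asc-GFP against Asc-RFP had 3 of 28 channel genes higher (10.7%, background 1.32%) and 0 lower (background 1.55%). The higher genes were Kcnc4 with a log2 ratio of 0.86 (0.70 to 1.01), Kcnip4 with 0.81 (0.68 to 0.94) and Abcc9 with 0.73 (0.68 to 0.79). No channel gene was lower by 1.5-fold, the nearest being Piezo2 at -0.32 (-0.52 to -0.13). The medians were 0.09 for the channel genes and 0.02 for all genes. In female cells alone Abcc9 was at 0.56, just below the limit, and in male cells at 0.92.

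Within Root, eGFP against tdTomato cells had 3 of 27 channel genes higher (11.1%, background 1.09%) and 2 lower (7.41%, background 3.11%). The 2 lower genes are too few to read against that background. Abcc9 had a log2 ratio of 0.80 (0.63 to 0.97), Kcnj8 of 0.73 (0.46 to 1.01) and Kcnip4 of 0.71 (0.40 to 1.01). Piezo2 was lower, at 3.91 against 13.1 CPM and a log2 ratio of -1.74 (-2.33 to -1.20), from 30 and 335 UMIs. Kcnj15 was lower at 36.4 against 55.5 CPM, with a log2 ratio of -0.61 (-0.80 to -0.42). The medians were 0.15 for the channel genes and 0.01 for all genes.

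The colour comparisons of root and ascending aorta share no library. Of 25 channel genes counted in both, 16 were higher in eGFP cells in both segments by any amount (64%, against 34.8% of the 9554 features counted in both) and 4 lower (16%, against 22.5%). Abcc9 and Kcnip4 were at least 1.5-fold higher in both (8%, against 0.314%), and 0 were at least 1.5-fold lower in both (against 0.963%). Counts of 2 and 0 genes of 25 are too few to read against these shares. Kcnc4 was counted in the ascending aorta and was at 0.25 (-0.21 to 0.69) in the root. Kcnj8 was counted in the root and was at 0.25 (0.15 to 0.36) in the ascending aorta. Whether these differ between segments was not tested.

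**Figure D5:**
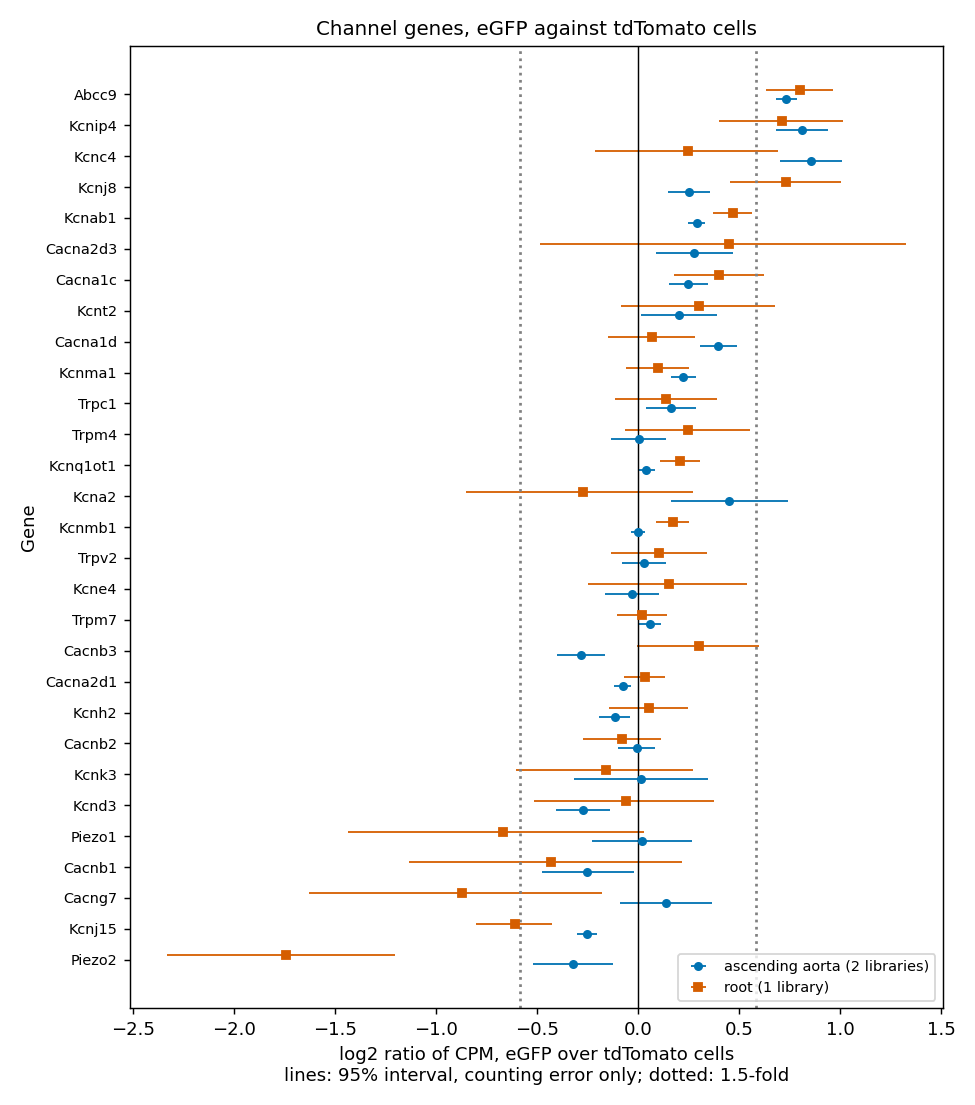
Log2 ratios of CPM, eGFP over tdTomato cells, for 29 of the 31 channel genes in the ascending aorta (circles, 2 libraries) and in the root (squares, 1 library split by reporter), with 95% intervals as lines and 1.5-fold as dotted lines. Abcc9 lies at 0.73 and 0.80 and Kcnip4 at 0.81 and 0.71, and Piezo2 in the root is farthest to the left at -1.74.

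Marker levels moved with colour in Root too, where the macrophage, endothelial and fibroblast sums given above were all lower in eGFP than in tdTomato cells. Without the marked cells, the root ratios of Abcc9 and Piezo2 were 0.76 and -1.77. Among male Root cells, 64 eGFP and 223 tdTomato cells, Kcnip4 was at -0.030, Kcnj8 at 0.13 and Abcc9 at 0.21. In female Root cells Kcnj15 was at -0.53, while Abcc9 was at 0.81, Kcnj8 at 0.79 and Kcnip4 at 0.75.

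The arch and the ascending aorta were compared in eGFP cells. Arch-GFP against Asc-GFP had 4 of 30 channel genes higher (13.3%, background 1.73%) and 0 lower (background 0.534%). Kcnk3 had a log2 ratio of 1.57 (1.34 to 1.81), Piezo1 of 1.18 (1.0003 to 1.36), Cacna2d3 of 1.11 (0.98 to 1.25) and Kcnc4 of 0.76 (0.66 to 0.85). Kcnk3 and Piezo1 were below 5 CPM in Asc-GFP, so they were counted only through their arch levels. Just below the limit were Kcnj8 at 0.55 (0.48 to 0.63), Cacna1d at 0.50, Cacnb3 at 0.50 and, on the lower side, Cacnb2 at -0.52 (-0.61 to -0.44). Abcc9 differed little, at 0.07 (0.04 to 0.11). The medians were 0.05 for the channel genes and 0.03 for all genes.

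In female cells alone Kcnc4 was at 0.21, from 17.5 CPM in the arch library and 15.2 CPM in the ascending one, whereas male cells had 30.1 and 16.1 CPM and a log2 ratio of 0.90. Kcnk3 was at 0.83 in female cells and 1.58 in male cells, Piezo1 at 0.98 and 1.41, and Cacna2d3 at 1.01 and 1.24. Kcnj8 was at 30.9 CPM in the arch and 25.7 CPM in the ascending library in female cells, a narrower gap than the 41.4 and 28.0 CPM in male cells. Fibroblast markers summed to 1308 CPM in the arch library and 1091 CPM in the ascending one, and macrophage and endothelial markers were low in both. Most of the fibroblast sums was Mfap5, at 762 and 572 CPM, and Col1a1, at 511 and 496 CPM. Dcn was nearly level at 16.3 and 16.1 CPM, and Lum was at 4.91 and 1.64 CPM. Of the endothelial markers only Erg reached 5 CPM in these libraries. The part of these markers and of the animals in the difference was not tested.

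Genes that act beside these channels were read from lists of store-operated entry, calcium release, calcium pumps, chloride channels, other cation channels, the cGMP pathway and BK subunits, 58 genes of which 38 reached 5 CPM in each comparison. By the same limits, 0 were higher and 0 lower in Asc-GFP against Asc-RFP (all features 1.32% and 1.55%). In the Root colours 0 were higher (all features 1.09%) and 1 lower (2.63%, all features 3.11%). In Arch-GFP against Asc-GFP 0 were higher (all features 1.73%) and 1 lower (2.63%, all features 0.534%). In Root tdTomato cells against Asc-RFP 4 were higher (10.5%, all features 4.36%) and 0 lower (all features 2.28%). In Root eGFP cells against Asc-GFP 2 were higher (5.26%, all features 2.8%) and 1 lower (2.63%, all features 2.97%). Counts of 0, 1 or 2 genes of 38 are too few to read against these shares. The cGMP-dependent kinase Prkg1, which phosphorylates BK channels, was higher in the root in both colours, at 91.6 against 57.3 CPM in tdTomato and 111 against 70.4 CPM in eGFP cells. Gucy1a1, a subunit of the nitric oxide receptor upstream of it, was at 714 against 465 CPM in eGFP cells, a log2 ratio of 0.62, and at 654 against 452 CPM in tdTomato cells, just under the limit at 0.53. The ATP-gated channel P2rx1 was at 11.8 against 6.43 CPM in tdTomato cells of root and ascending aorta, a log2 ratio of 0.87, and at 7.69 against 8.82 CPM in eGFP cells, where it was -0.20 (-0.61 to 0.19). All 7 calcium pumps and exchangers and the 4 counted store-operated entry genes were within 1.5-fold in all 5 comparisons.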

How the data were processed

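Per the file headers and the labels' protocols, the deposited matrices hold UMI counts per gene and barcode, made by the authors with Cell Ranger 7.0.0 from 10x 3′ libraries. Per the submitters' processing notes, the build was mm10 and Seurat 4.3 was used later; its output was not used here. Strand and intron settings of the counting are not given in the sources used here. Counts were summed over kept cells of each group and scaled to CPM, in Python 3.11.15 with numpy 2.4.6 and scipy 1.17.1. Levels have exact Poisson, ratios exact conditional binomial and shares exact binomial intervals. Only the ratio intervals were tried on simulated counts, which were drawn without variation between cells or animals. Doublets and free RNA were not removed. In Root, eGFP cells had at least 8 eGFP and at most 1 tdTomato UMI, and tdTomato cells at least 2 tdTomato and at most 3 eGFP UMIs. Female cells had a UMI of Xist and none of 4 Y-linked genes, and male cells the reverse. For each of 5 comparisons a gene counted at 5 CPM and 1.5-fold. With 1 library per group no test was run. Values in every library are given for the 12 genes with the highest mean level, for Abcc9 and Kcnj8 and for every gene counted in a comparison with an interval that excluded 0; from each partner list at most 3 genes with the largest ratios were named. A few genes enter the counts but are not reported here. The genes, lists and limits were chosen with earlier results of these data known. The alternatives were other scaling, cell filters, limits, reporter classes and cells of each sex. No sequences of proteins were used here.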

Additional observations from a re-analysis of the deposited data

Results flagged for a closer look

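In the comparison of root with ascending aorta, Piezo2 had a log2 ratio of 0.88 in tdTomato cells and of -0.54 in eGFP cells, so the colours lay on opposite sides of 0. Cacna1d did the same with smaller values, 0.13 in tdTomato and -0.20 in eGFP cells. With 1 library behind each group, the difference between the colours was not tested for either gene.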

How the results depend on the processing

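All 28 counted differences kept their direction and at least 1.5-fold under median-of-ratios scaling, with each cell weighted the same, without marked cells and without the 10% of cells with most UMIs, and all 21 that involve Root did so under stricter reporter classes. With at least 2000 genes and at most 5% mitochondrial UMIs per cell, 27 of 28 did, in female cells 22 of 28 and in male cells 24 of 27; Cacna2d3 had no UMI in the 64 male Root eGFP cells, so its ratio there was not given. Kcnip4 in the Root colours was at -0.030 in male cells, the only reversal. The counts of channel genes apart, 3, 5, 9, 7 and 4 in Asc-GFP against Asc-RFP, the Root colours, Root tdTomato cells against Asc-RFP, Root eGFP cells against Asc-GFP and Arch-GFP against Asc-GFP, became 53, 66, 64, 64 and 52 with no minimum level, which adds genes with few UMIs: 46.8% to 68% of the members with a UMI, beside 28.5% to 38.1% of all features. At 20 CPM they were 2, 3, 3, 2 and 1 in the same order (5.56% to 18.8%, beside 1.33% to 4.51%). At 2-fold they were 0 for the ascending colours, 1 for the Root colours, 4 for Root tdTomato cells, 5 for Root eGFP cells and 3 for Arch-GFP (0% to 17.9%, beside 0.914% to 2.92%). In female cells the count for Arch-GFP was 2 (6.9%, beside 2.85%), and in male cells those with Root were 11, 14 and 14 (42.3%, 48.3% and 50%, beside 26.1%, 14.5% and 26.5%). At 20 CPM, 19 genes met the level rule in place of 31. The share of cells with an Abcc9 UMI was 31.5%, 50.02%, 67.9% and 67.1% unthinned in Root, Asc-RFP, Asc-GFP and Arch-GFP, which follows from the greater depth. The cause of the other shifts was not tested. No paired analysis was possible because each group was 1 library. Depth limits the Root eGFP cells most, with 7670195 UMIs, where 3 UMIs are worth 0.391 CPM.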

Other observations

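Some channel genes below 5 CPM in every library were higher in Root than elsewhere; they were chosen after their values were seen. Kcna5, the Kv1.5 pore, was at 3.60 CPM in Root, 0.107 CPM in Asc-GFP, 0.185 CPM in Asc-RFP and 0.198 CPM in Arch-GFP. It was at 4.82 CPM in Root eGFP and 3.21 CPM in Root tdTomato cells, and at 3.12 CPM in Root without marked cells. Kcnj12, the inward rectifier pore Kir2.2, was at 2.97 CPM in Root, 1.12 CPM in Asc-GFP, 1.09 CPM in Asc-RFP and 0.475 CPM in Arch-GFP. Cacna1h, the T-type pore CaV3.2, was at 2.67 CPM in Root, 0.428 CPM in Asc-GFP, 0.556 CPM in Asc-RFP and 0.515 CPM in Arch-GFP. All 3 were higher in Root in both colours.

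The marked cells of Root were also read for channel genes, and those named were chosen after their values were seen. In 47 cells with endothelial markers, Piezo1 was at 64.2 CPM (43.0 to 92.2), Kcna5 at 48.7 CPM (30.5 to 73.7) and Kcnt2 at 46.5 CPM (28.8 to 71.0). In 101 cells with macrophage markers, Kcnk13 was at 25.9 CPM, Kcnk6 at 25.0 CPM, Trpv4 at 24.0 CPM and Kcnab2 at 23.1 CPM. These sums rest on 451906 and 1041158 of the 39691658 UMIs of Root, and no test was made of them. The cells with endothelial markers held 29 of 154 Piezo1, 22 of 143 Kcna5 and 21 of 369 Kcnt2 UMIs of Root, beside 451906 of 39691658 UMIs of all genes. The rest of the UMIs of these 3 genes lay in other cells. The cells with macrophage markers held 27 of 27 Kcnk13, 26 of 60 Kcnk6, 25 of 27 Trpv4 and 24 of 27 Kcnab2 UMIs.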
